A study of Equus caballus with 8 samples.

Results

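The axon-guidance ligands and receptors described here are 58 of the 15266 named genes in the deposited table. They were chosen by gene symbol, with no measured value in the rule, though earlier results of these data were known at the time. They fall into 4 signalling systems. The ephrin system held 18 genes, 7 ephrins and 11 Eph receptors. The semaphorin system held 27 genes, 16 semaphorins and 11 receptors (plexins and neuropilins). The slit system held 4 genes, 2 slits and 2 Robo receptors, and the netrin system held 9, 5 netrins and netrin-Gs and 4 receptors of the UNC5 and neogenin type. Of the 71 symbols of this pattern in the RefSeq gene table of the horse assembly TB-T2T, 13 were not analysed here.

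The cells were equine BM-MSCs, mesenchymal stem cells grown as plastic-adherent stroma from the sternal bone marrow of 4 horses, named D, J, L and W. Marrow of each horse was divided between an untreated culture and a culture that received 1 ng/ml human recombinant TGF-β2, a cytokine that acts through SMAD proteins, which gave 4 untreated and 4 TGF-β2-treated libraries. All cultures shared low-glucose DMEM with fetal bovine serum, antibiotics and basic fibroblast growth factor, and no library was made without these. The horses were adult Thoroughbreds or Thoroughbred crosses. The age of each horse, and which libraries came from passage 3 and which from passage 4, were not given in the sources used here. According to the sample labels, TGF-β2 was present from the isolation of the cells onwards, while the methods of the study give a treatment of 3 passages.

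Axon-guidance molecules were first described in the nervous system, where they attract or repel the tips of growing nerve fibres, and they are used by many other cells to set contact, spreading and migration. Ephrins are held in the membrane of the neighbouring cell and bind Eph receptors, a family of receptor tyrosine kinases, so that signals can pass into both cells. Most semaphorins bind plexins, which act on small GTPases and the actin cytoskeleton, and the secreted class 3 semaphorins bind through neuropilins as coreceptors. Slits are secreted and act through Robo receptors, and netrins are secreted, laminin-related proteins that act through UNC5 receptors, neogenin and DCC. In bone marrow and bone, members of all of these systems are known from stromal cells, osteoblasts and vessels.

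Between 39184554 and 57228675 reads were counted per library, and 3 reads corresponded to 2.02 to 3.60 normalized counts. Values below are normalized counts, the gene's reads divided by the size factor of the library, and lists of 4 values are always in the order of horses D, J, L and W. They were not divided by transcript length, so levels of different genes are not compared. Among the markers of marrow stroma, 7 of 8 stromal markers were in the table, with means of at least 355 normalized counts in both groups, the lowest being that of CXCL12 in treated cells. CXCL12 was lower after treatment (10481 and 355 normalized counts, log2 fold change -5.57, adjusted p from limma 0.00399), as was THY1 (100212 and 19854, -2.21, 0.0494), while ITGB1 had a log2 fold change of 0.91 (0.0123). The 6 leukocyte markers in the table summed to 67.0 to 369 in untreated and 31.0 to 166 in treated libraries. The 2 endothelial markers in the table summed to 7.10 to 26.3 and 30.0 to 55.7, and KDR, at 5.79 and 25.2 on average, was higher after treatment (adjusted p from limma 0.0362). Of the markers of neurons and glia, 2 were analysed, and their sum was 1724 to 4243 in untreated and 12308 to 22788 in treated libraries. TUBB3, a neuronal tubulin, made up nearly all of it, and SYT1 had no read in any untreated library and 24.6 to 131 in the treated ones. The 6 pericyte and smooth muscle markers summed to 3763 to 12426 and 5366 to 11431, and DES, the muscle filament protein desmin, was higher after treatment, at 3.70 and 118 on average (log2 fold change 4.46, adjusted p from limma 0.00519). The rest of this list did not rise with it. RGS5, MCAM, NOTCH3 and MYH11 had log2 fold changes of -0.31, -1.17, -0.38 and -0.12, and CSPG4 had 0.35 (adjusted p from limma 0.0957 to 0.956). The part of these levels in the results below was not tested, and in bulk RNA fewer cells of a type and less RNA per cell cannot be told apart.

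TGF-β2 treatment was followed by changes in both directions among the guidance genes. All 58 were among the 14907 genes tested with limma, and 14 were called differentially expressed, with an adjusted p under 0.05 and a log2 fold change beyond 1 in either direction. These were 7 higher genes, EPHA8, EPHA7, EPHA10, EPHB6, EFNA1, EFNA3 and SEMA4F, and 7 lower genes, NTNG1, SEMA3A, NTN1, SEMA6A, UNC5A, NTN3 and SEMA6D. Of all genes tested, 5.59% were higher, 5.87% lower and 11.5% either, against 24.1% of the guidance genes. Since the guidance genes were chosen with earlier results of these data known, this share cannot be read as a test of the set. When limma included the horse as a block, 9 guidance genes were higher and 10 lower, which added EPHB3 and SEMA7A to the higher and EPHB2, NTN4 and SLIT3 to the lower genes. The background under that model was 6.83% higher, 7.31% lower and 14.1% either. All 19 of these genes changed in the same direction in all 4 horses. The ranges of the treated and untreated groups did not overlap in 20 guidance genes, 34.5%, against 27.8% of all genes tested. The median absolute log2 fold change was 0.79 for the guidance genes and 0.35 for all genes tested, while the median signed change was 0.02 and 0.01. A further limit concerns 4 genes. EPHA8 and EPHA10 met the minimum of 10 normalized counts in 4 libraries through the treated libraries only, and NTNG1 and SEMA6A through the untreated ones only. At the level of their lower group in all libraries they would not have been tested. All 4 were also called when no filter was used.

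**Figure D1:**
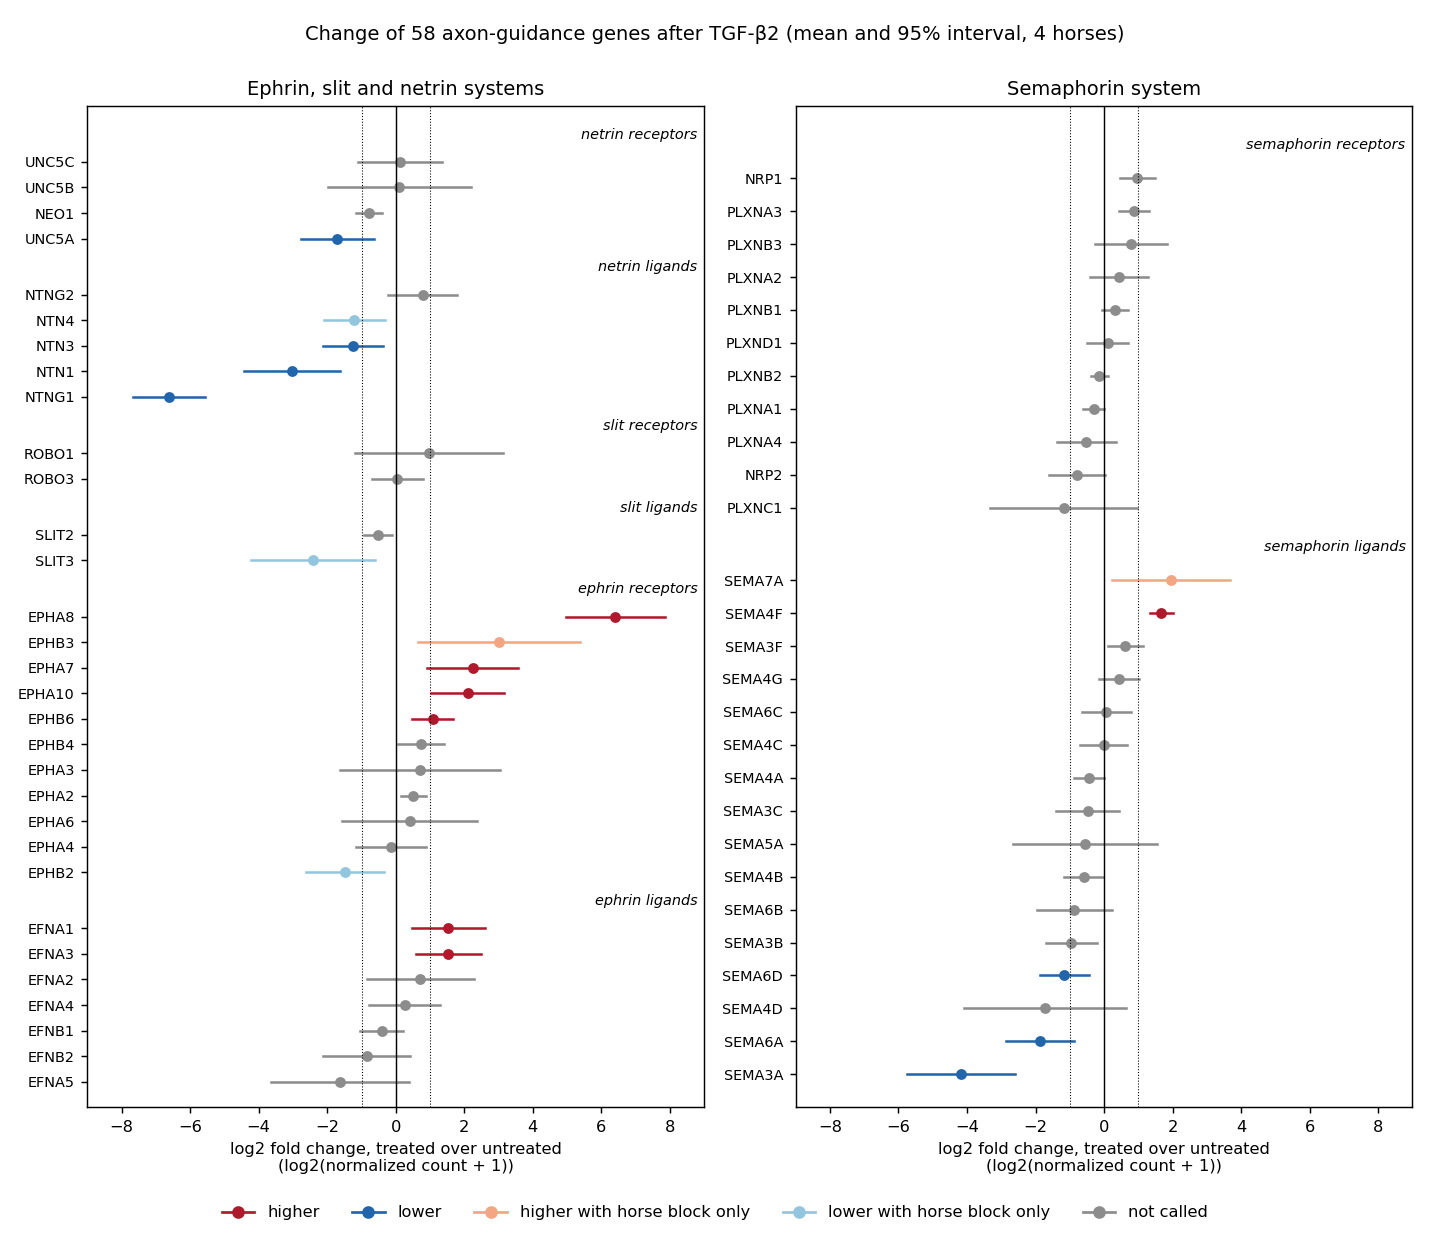
Log2 fold change of each of the 58 guidance genes after TGF-β2 treatment (x axis, log2 of normalized count + 1, treated minus untreated), grouped by signalling system (y axis), with bars for the 95% interval from limma without the horse. The changes ran from -6.63 for NTNG1 to 6.41 for EPHA8, and colours mark the genes called by limma without and with the horse.

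By system, the calls lay as follows. In the ephrin system 6 genes were higher and 0 lower (7 and 1 with the block). The netrin system had 0 higher and 4 lower genes (0 and 5 with the block). In the semaphorin system 1 ligand was higher and 3 were lower (2 and 3 with the block), with 0 of the 11 receptors called in either model. The slit system had 0 calls without the block and 1 lower gene with it. The share called was 33.3% for ephrin, 44.4% for netrin, 14.8% for semaphorin and 0% for slit genes, against 11.5% of all genes tested. With the block these were 44.4%, 55.6%, 18.5% and 25%, against 14.1%. The semaphorin share was thus near that of all genes. Across systems, 3 of 30 ligands were higher and 6 lower, and 4 of 28 receptors were higher and 1 lower. That was 30% of the ligands and 17.9% of the receptors. No test of the difference between systems or between ligands and receptors was made. Under scaling to equal total reads, the log2 fold change of the median gene moved by -0.31 and 5 guidance genes were higher and 12 lower, with 4 higher and 1 lower in the ephrin system and 0 higher and 6 lower in the netrin system. Over all genes tested, 587 were then higher and 1538 lower, so that 14.3% were called, against 29.3% of the guidance genes.

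Among the ephrin ligands, EFNA1 and EFNA3, both attached to the membrane by a lipid anchor, rose. EFNA1, whose best-known receptor is EPHA2, had 50.5, 13.5, 63.1 and 21.3 normalized counts in the untreated libraries and 100.1, 84.6, 95.4 and 88.9 in the treated ones. The treated libraries lay close together and above all untreated libraries, among which J and W were low. On the means this was 2.49-fold, and on the log2 scale 1.53 (standard error 0.47; adjusted p from limma 0.0468). In limma without the horse, this call was lost without any 1 horse, with adjusted p of 0.123, 0.0816, 0.0586 and 0.20 without D, J, L and W. With the horse as a block it was lost only without D and W (adjusted p from limma 0.0844 and 0.135). Among the fits without the horse, it was also lost with a filter at 50, under total scaling and with edgeR. EFNA3 had 15.7, 8.08, 31.1 and 23.3 normalized counts in untreated and 52.4, 40.7, 50.6 and 70.9 in treated libraries. Again the groups did not overlap. Limma gave a log2 fold change of 1.53 (standard error 0.42; adjusted p from limma 0.0316), and the adjusted p was 0.158, 0.0524 and 0.126 without D, L and W. EFNA1, EFNA3 and EFNA4 lie next to one another among the protein-coding genes of the RefSeq table (TB-T2T).

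The neighbour EFNA4 was not called. It had 228, 56.6, 213 and 202 normalized counts in untreated and 214, 233, 126 and 181 in treated libraries, so that only horse J had more after treatment. Limma gave it a log2 fold change of 0.26 (95% interval -0.78 to 1.30; adjusted p 0.726). EFNA5, a ligand of EPHA3 and other EphA receptors, had 364, 27.6, 474 and 563 normalized counts in untreated and 69.1, 54.6, 93.1 and 81.7 in treated libraries. It was lower in horses D, L and W and higher in J. Its log2 fold change was -1.63 (standard error 0.88; adjusted p from limma 0.218), and without horse J it was -2.49 with an adjusted p of 0.00187. The adjusted p of EFNA5 was 0.506, 0.443 and 0.502 without D, L and W. DESeq2 called it lower without and with the horse. EFNA2 (log2 fold change 0.71) and the transmembrane ephrins EFNB1 (-0.41) and EFNB2 (-0.85) were not called either, with adjusted p between 0.311 and 0.498. EFNB2, which marks arterial vessels, had 39.7 normalized counts in the untreated library of J and 126 to 238 in the other 3. Without horse J it reached -1.21 on the log2 scale (adjusted p 0.0332), while the adjusted p was 0.683, 0.519 and 0.467 without D, L and W. With the horse as a block and total scaling EFNB2 was called lower.

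The largest increase of any guidance gene was that of EPHA8, an Eph receptor known mainly from the developing midbrain. It had 0, 0, 4.71 and 0 normalized counts in untreated and 82.2, 119, 222 and 132 in treated libraries. All untreated reads of the gene, 5 in number, came from horse L, against 483 reads over the treated libraries. The means were 1.18 ± 2.36 and 139 ± 59.3 (SD, n = 4), and the 118-fold ratio between them rests on those 5 reads. On the log2 scale with a pseudocount of 1 the change was 6.41 (standard error 0.63; adjusted p from limma 8.86e-04), and it was 7.18 and 4.52 with pseudocounts of 0.5 and 5. The call held with any 1 horse left out, with adjusted p of 0.00182 to 0.0177.

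EPHA7 and EPHA10 rose from low levels. EPHA7, a receptor with a role in the patterning of cortex, had 13.9, 8.08, 6.60 and 23.3 normalized counts in untreated and 96.5, 19.3, 85.1 and 72.1 in treated libraries. Its groups overlapped, since the treated library of J was below the untreated library of W, yet the gene was higher after treatment in each horse. Over all horses the log2 change was 2.24 (standard error 0.59; adjusted p from limma 0.0282), and the adjusted p was 0.139, 0.138 and 0.0869 without D, L and W. EPHA10, a receptor that lacks kinase activity, had 5.22, 7.41, 8.48 and 4.06 normalized counts in untreated and 19.1, 16.1, 40.2 and 58.9 in treated libraries, without overlap. These rest on 30 reads in all untreated and 115 in all treated libraries. On the log2 scale the change was 2.10 (standard error 0.47; adjusted p from limma 0.0159), with 0.0728, 0.0638 and 0.0959 without D, L and W.

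EPHB6, the other Eph receptor without kinase activity, was measured at far higher counts. It had 2776, 2097, 1878 and 1838 normalized counts in untreated and 5444, 2641, 6241 and 4388 in treated libraries. Horse J changed least, by 0.33 on the log2 scale, and its treated library was the only one within the untreated range. Across horses the log2 fold change was 1.07 (standard error 0.27; adjusted p from limma 0.0233). The call was lost under total scaling, where the log2 fold change was 0.76, and without D, L or W (adjusted p 0.0841, 0.110 and 0.131).

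EPHB3 and EPHB2 changed in opposite directions. On the deposited scaling with all 4 horses, limma called both only when it included the horse. EPHB3, a receptor of the B ephrins, had 11.3, 10.8, 286 and 51.7 normalized counts in untreated and 194, 139, 568 and 587 in treated libraries. The groups overlapped, since untreated L exceeded the treated libraries of D and J, although the gene was higher in each horse by 0.98 to 3.99 on the log2 scale. Limma gave a log2 fold change of 3.01 (standard error 1.04 without the block). The adjusted p was 0.0121 with the horse and 0.0696 without it. In limma with the horse, it was not called without D or W (adjusted p 0.060 and 0.0716). EPHB2, the receptor of the same class known from synapses and gut epithelium, had 445, 221, 948 and 875 normalized counts in untreated and 144, 182, 146 and 351 in treated libraries. Untreated J lay within the treated range and the other 3 above it. Over the 4 horses the log2 change was -1.48 (standard error 0.50 without the block). Its adjusted p was 0.0361 with the horse and 0.0652 without it. With the horse term it was lost without D, L or W, at 0.131, 0.0728 and 0.124. Without the horse term EPHB2 was called lower by DESeq2 (adjusted p 0.00672), under total scaling (0.0211) and without J (0.0264), and EPHB3 was called higher without L (0.0308). EPHB2 and EPHA8 lie close together, with 3 protein-coding genes between them in the RefSeq table (TB-T2T).

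**Figure D2:**
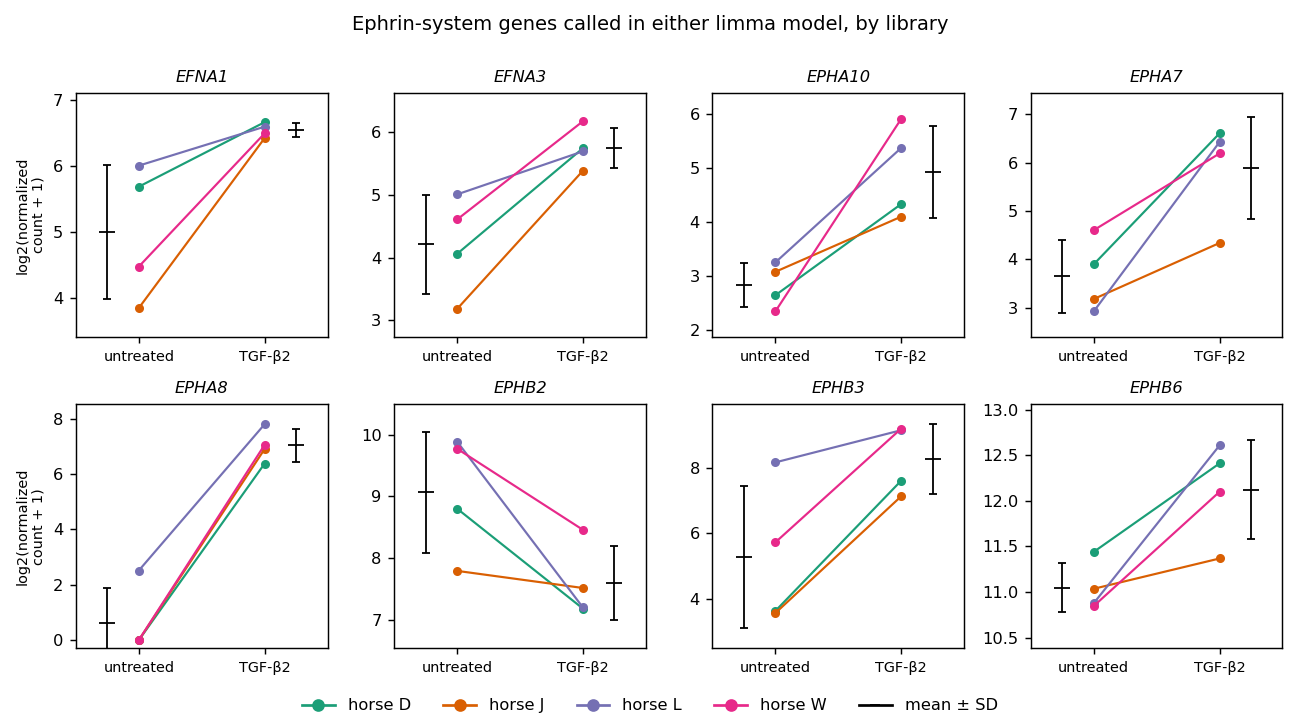
Values of log2(normalized count + 1) (y axis) of the 8 ephrin-system genes called by limma without or with the horse, in untreated and TGF-β2-treated libraries (x axis), with lines joining the libraries of a horse and bars for the mean ± SD of the log2 values (n = 4). In normalized counts, EPHA8 runs from 0 to 4.71 in untreated to 82.2 to 222 in treated libraries, and EPHB2 is the gene of the 8 that is lower.

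The remaining Eph receptors were not called. EPHA2, the receptor of EFNA1, averaged 8837 ± 1655 normalized counts without and 12496 ± 1586 with treatment (SD, n = 4). Its treated libraries all lay above the untreated ones, but the log2 fold change was 0.51 (standard error 0.16; adjusted p from limma 0.0506). EPHB4, a receptor of EFNB2 known from veins, had 2972, 1135, 2916 and 2776 in untreated and 3989, 4079, 3432 and 3789 in treated libraries. The groups did not overlap, with the untreated library of J well below the other 3. On the log2 scale the change was 0.74 (standard error 0.30; adjusted p from limma 0.110). EPHA3, EPHA4 and EPHA6 had log2 fold changes of 0.71, -0.15 and 0.40, with adjusted p between 0.665 and 0.846. EPHA3 had 2546 normalized counts in the treated library of L and 145 to 329.7 in the other treated libraries.

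In the semaphorin system, SEMA3A had the largest decrease. SEMA3A is a secreted repellent that binds neuropilin-1 and is also known to act on bone cells. It had 938, 982, 1162 and 245 normalized counts in untreated and 36.9, 129.5, 25.3 and 18.0 in treated libraries. The groups did not overlap, with horse W the lowest in both. The means were 831 ± 403 and 52.4 ± 52.0 (SD, n = 4), 15.9-fold lower after treatment. Limma gave a log2 fold change of -4.17 (standard error 0.69; adjusted p from limma 0.00517), and the adjusted p was 0.0550 without horse D and at most 0.0365 without any other. The other class 3 semaphorins were not called. SEMA3B was lower in all 4 horses, at 2004 ± 741 and 990.2 ± 239 normalized counts and a log2 change of -0.95 (standard error 0.32; adjusted p from limma 0.0677), and DESeq2 without the horse and edgeR called it lower. SEMA3C and SEMA3F, which also act through neuropilins, had log2 fold changes of -0.47 and 0.62 (adjusted p from limma 0.437 and 0.0811). SEMA3B and SEMA3F have 3 protein-coding genes between them in the RefSeq table (TB-T2T), and their changes had opposite signs.

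SEMA4F, a transmembrane semaphorin found at synapses and in glia, was the semaphorin called higher. It had 1551, 1987, 1537 and 1685 normalized counts in untreated and 5095, 4314, 6617 and 5711 in treated libraries. Both groups were tight and far apart, at 1690.1 ± 209 and 5435 ± 974 (SD, n = 4), which is 3.22-fold. On the log2 scale this was 1.67, with a standard error of 0.15, the smallest of the 14 called guidance genes, and limma gave an adjusted p of 5.68e-04. The call held with any 1 horse left out, with adjusted p of 7.60e-04 to 0.0148. In the RefSeq table (TB-T2T) SEMA4F overlaps M1AP. The log2 fold change of M1AP was 0.31 (adjusted p from limma 0.434), at means of 44.7 and 56.4 normalized counts. Whether the counting used the strand of the reads was not given in the sources used here, so reads of overlapping genes cannot be told apart. In the same table long non-coding RNA genes overlap EFNA3, EPHB3, NTNG1, SEMA6A, SEMA6D and SLIT3.

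SEMA6A and SEMA6D, transmembrane semaphorins that bind A-type plexins, fell. SEMA6A had 19.1, 10.1, 35.8 and 35.5 normalized counts in untreated and 5.96, 6.42, 4.60 and 4.81 in treated libraries. No library overlapped between the groups, although all reads of the gene came to 110 in untreated and 19 in treated libraries. On the log2 scale the change was -1.87 (standard error 0.44; adjusted p from limma 0.0188), with 0.0945, 0.0970 and 0.122 without D, L and W. SEMA6D had 351, 335, 269 and 641 normalized counts in untreated and 142, 123, 216 and 211 in treated libraries. These did not overlap either, with horse L changing least, by -0.31 on the log2 scale. Over all horses the log2 change was -1.16 (standard error 0.31; adjusted p from limma 0.030). Without D, J and W the adjusted p was 0.147, 0.0691 and 0.0780. On the deposited scaling, the other class 6 genes, SEMA6B and SEMA6C, were not called by limma without or with the horse. Their log2 fold changes were -0.86 and 0.06. SEMA6B was lower in each horse, with log2 changes from -1.06 to -0.62. Its adjusted p was 0.233 without the horse and 0.00895 with it, where only the fold threshold was missed. With the block and total scaling SEMA6B was called lower.

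SEMA7A, a lipid-anchored semaphorin that binds integrins and plexin C1, was higher with the horse as a block. It had 583, 2559, 509.8 and 211 normalized counts in untreated and 3645, 4776, 1828 and 1104 in treated libraries. Untreated J lay above the treated libraries of L and W, and each horse was higher after treatment, by 0.90 to 2.64 on the log2 scale. Limma put the log2 change at 1.94 (standard error 0.75 without the block). With the horse the adjusted p was 0.00845, and without it 0.0991. With the horse term kept, the adjusted p was 0.0549 without W, and without that term the gene was called when J was left out (0.0261).

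Other semaphorins of class 4 and 5 varied between horses or changed little. SEMA4D, an activator of plexin B1, had 10.4, 435, 58.4 and 96.4 normalized counts in untreated and 22.6, 7.49, 48.3 and 22.8 in treated libraries. Horse J went from the highest to the lowest value and horse D was higher after treatment. On the log2 scale the change was -1.73 (standard error 1.03; adjusted p from limma 0.264), and -0.42 without horse J. DESeq2 without the horse called it lower (-2.57, adjusted p 0.0243) and with the horse did not (0.193). SEMA5A was lower in D, L and W and higher in J, where it went from 428 to 1069.5 normalized counts. Its log2 fold change was -0.56 (adjusted p from limma 0.705), and -1.19 without horse J (adjusted p 0.0510). The adjusted p of SEMA5A was 0.897, 0.841 and 0.899 without D, L and W. SEMA4A was lower in all 4 horses without overlap, at 178 ± 28.3 and 129.9 ± 18.1 normalized counts and a log2 change of -0.45 (standard error 0.19; adjusted p from limma 0.135). SEMA4B, SEMA4C and SEMA4G had log2 fold changes of -0.60, -0.01 and 0.44, with adjusted p of 0.120 to 0.991.

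None of the semaphorin receptors passed both thresholds in limma without or with the horse. NRP1, a coreceptor of SEMA3A and of VEGF, came nearest, with 6794, 12578, 7235 and 9169 normalized counts in untreated and 17246, 12640.3, 20385 and 18630.1 in treated libraries. Horses D, L and W were higher after treatment by 1.02 to 1.49 on the log2 scale and horse J by 0.01. Its log2 fold change was 0.97 (standard error 0.22; adjusted p from limma 0.0181), just under the threshold of 1, and without horse J it was 1.29 with an adjusted p of 0.00304. The adjusted p of NRP1 was 0.116, 0.0994 and 0.105 without D, L and W. NRP2 had 14471 ± 3284 and 9036 ± 4419 normalized counts, a log2 change of -0.79 (standard error 0.36; adjusted p from limma 0.145). With the horse as a block its adjusted p from limma was 0.0552, and with the block and total scaling NRP2 was called lower. PLXNA3, a plexin that pairs with neuropilins, was higher in each horse without overlap. It had 1615 ± 323 and 2948 ± 559 normalized counts and a log2 fold change of 0.87 (standard error 0.19; adjusted p from limma 0.0152). PLXNC1, the receptor of SEMA7A, had 52.2, 7.41, 228 and 96.4 normalized counts in untreated and 16.7, 12.8, 35.6 and 40.8 in treated libraries. It was lower in D, L and W and higher in J. Over all horses the log2 change was -1.18 (standard error 0.94; adjusted p from limma 0.405), and -1.82 without horse J. The adjusted p of PLXNC1 was 0.0701 without J, and 0.654, 0.688 and 0.576 without D, L and W. With the horse term kept, PLXNC1 was called lower without J (adjusted p from limma 0.0142) and not without D, L or W (0.363, 0.403 and 0.325). The remaining plexins, PLXNA1, PLXNA2, PLXNA4, PLXNB1, PLXNB2, PLXNB3 and PLXND1, had log2 fold changes between -0.51 and 0.78. PLXNB2, at 30528 ± 1806 and 27819 ± 2095 normalized counts, had the narrowest interval, -0.38 to 0.10.

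In the slit system SLIT3, a secreted ligand of Robo receptors known from bone and vessels, was called lower by limma with the horse. On the deposited scaling and over all 4 horses, SLIT3 was not called without the horse. It had 16141, 3281, 10870.1 and 21697 normalized counts in untreated and 1725, 539, 3005 and 5493 in treated libraries. The groups overlapped, since untreated J was lower than treated W, but every horse was lower, with log2 changes from -3.23 to -1.85. Limma put the mean log2 change at -2.42 (standard error 0.79 without the block). With the horse the adjusted p was 0.00309, and without it 0.0586. With the horse term kept, the call held without each horse, with adjusted p of 0.00443 to 0.0231. Without the horse term SLIT3 was called lower by DESeq2 (adjusted p 0.00476), under total scaling (0.0237) and without J (0.0136). SLIT2 was lower in all 4 horses without overlap, at 11836 ± 2087 and 8319 ± 1716 normalized counts and a log2 change of -0.52 (standard error 0.18; adjusted p from limma 0.0671). ROBO1, a receptor of both, had 184, 1157, 1809 and 203 normalized counts in untreated and 249, 2005, 2168 and 1039 in treated libraries. Horses D and W were low and J and L high without treatment, and all 4 were higher after it, by 0.26 to 2.35 on the log2 scale. Their mean log2 change was 0.96 (standard error 0.94; adjusted p from limma 0.509, and 0.0960 with the horse). ROBO3 had 43.2 ± 10.5 and 46.2 ± 16.5 normalized counts and a log2 fold change of 0.05.

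The netrin system held the largest decrease of the guidance genes. NTNG1, which encodes netrin-G1, a lipid-anchored netrin relative that binds a transmembrane ligand rather than the netrin receptors, had 259, 306, 534 and 361 normalized counts in untreated libraries. The treated libraries had 1.19, 6.42, 1.15 and 3.60, and the reads came to 1676 in all untreated and 11 in all treated libraries. The groups were far apart, at 365 ± 120.1 and 3.09 ± 2.5 (SD, n = 4), a ratio of 118. With a pseudocount of 1 the log2 fold change was -6.63 (standard error 0.46; adjusted p from limma 2.54e-04), and -6.88 and -5.51 with pseudocounts of 0.5 and 5. The call held without any 1 horse, at adjusted p of 7.60e-04 to 0.00844. NTNG2, its paralogue, had a log2 change of 0.78 (standard error 0.44; adjusted p from limma 0.238).

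NTN1, the secreted netrin-1, had 365, 2128, 433 and 354 normalized counts in untreated and 52.4, 135, 47.1 and 79.3 in treated libraries. Horse J stood far above the others without treatment and was the highest after it, and the groups did not overlap. Limma gave a log2 fold change of -3.02 (standard error 0.61; adjusted p from limma 0.0111), 10.5-fold on the means, and -2.70 without horse J (adjusted p 0.00187). Without D, L and W the adjusted p was 0.0650, 0.0513 and 0.0546, while with the horse term kept the call held without each horse. NTN3 had 33.1, 20.2, 48.1 and 53.8 normalized counts in untreated and 9.53, 16.1, 16.1 and 19.2 in treated libraries. Its groups were close, with the untreated library of J just above the treated library of W. On the log2 scale the change was -1.24 (standard error 0.38; adjusted p from limma 0.0484), and the adjusted p was 0.197, 0.169 and 0.161 without D, L and W. The call was also lost with no filter and under upper-quartile scaling. NTN4, a netrin of basement membranes, was called lower with the horse as a block. It had 204, 507, 188 and 147 normalized counts in untreated and 73.8, 116, 129 and 90.1 in treated libraries. These did not overlap, and horse J again had the highest untreated value. Limma gave a log2 change of -1.21 (standard error 0.39 without the block). Its adjusted p was 0.0329 with the horse and 0.0565 without it. With the horse term kept, it was lost without D and W, at 0.130 and 0.0840, and without J, where the log2 fold change was -0.90. NTN4 overlaps SNRPF in the RefSeq table (TB-T2T), whose log2 fold change was 0.05. DESeq2, edgeR and total scaling called NTN4 lower without the horse as well (adjusted p 0.00833, 0.0496 and 0.0215).

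Of the netrin receptors UNC5A fell. It is a receptor of the repulsive response to netrin-1, and it had 608, 182, 179 and 117 normalized counts in untreated and 63.1, 84.6, 63.2 and 57.7 in treated libraries. Horse D had the highest untreated value, and the groups did not overlap. The log2 fold change was -1.71 (standard error 0.47; adjusted p from limma 0.0326), and -1.20 without horse D. Without the horse term the call was lost without any 1 horse, at adjusted p of 0.0709, 0.0550, 0.106 and 0.0748 without D, J, L and W. With that term kept it was lost only without L and W (adjusted p from limma 0.0741 and 0.0789). UNC5A overlaps HK3, a hexokinase gene, in the RefSeq table (TB-T2T), and HK3 was lower as well, at 15.5 and 4.64 normalized counts on average (log2 fold change -1.58, adjusted p from limma 0.0138). NEO1, the receptor neogenin, was lower in each horse without overlap, at 4342 ± 768 and 2519 ± 449 normalized counts. Its log2 fold change was -0.78 (standard error 0.17; adjusted p from limma 0.0142), under the fold threshold, and it was called lower under total scaling, at -1.10. UNC5B and UNC5C had log2 fold changes of 0.10 and 0.13, with 95% intervals of -1.99 to 2.19 and -1.09 to 1.34.

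**Figure D3:**
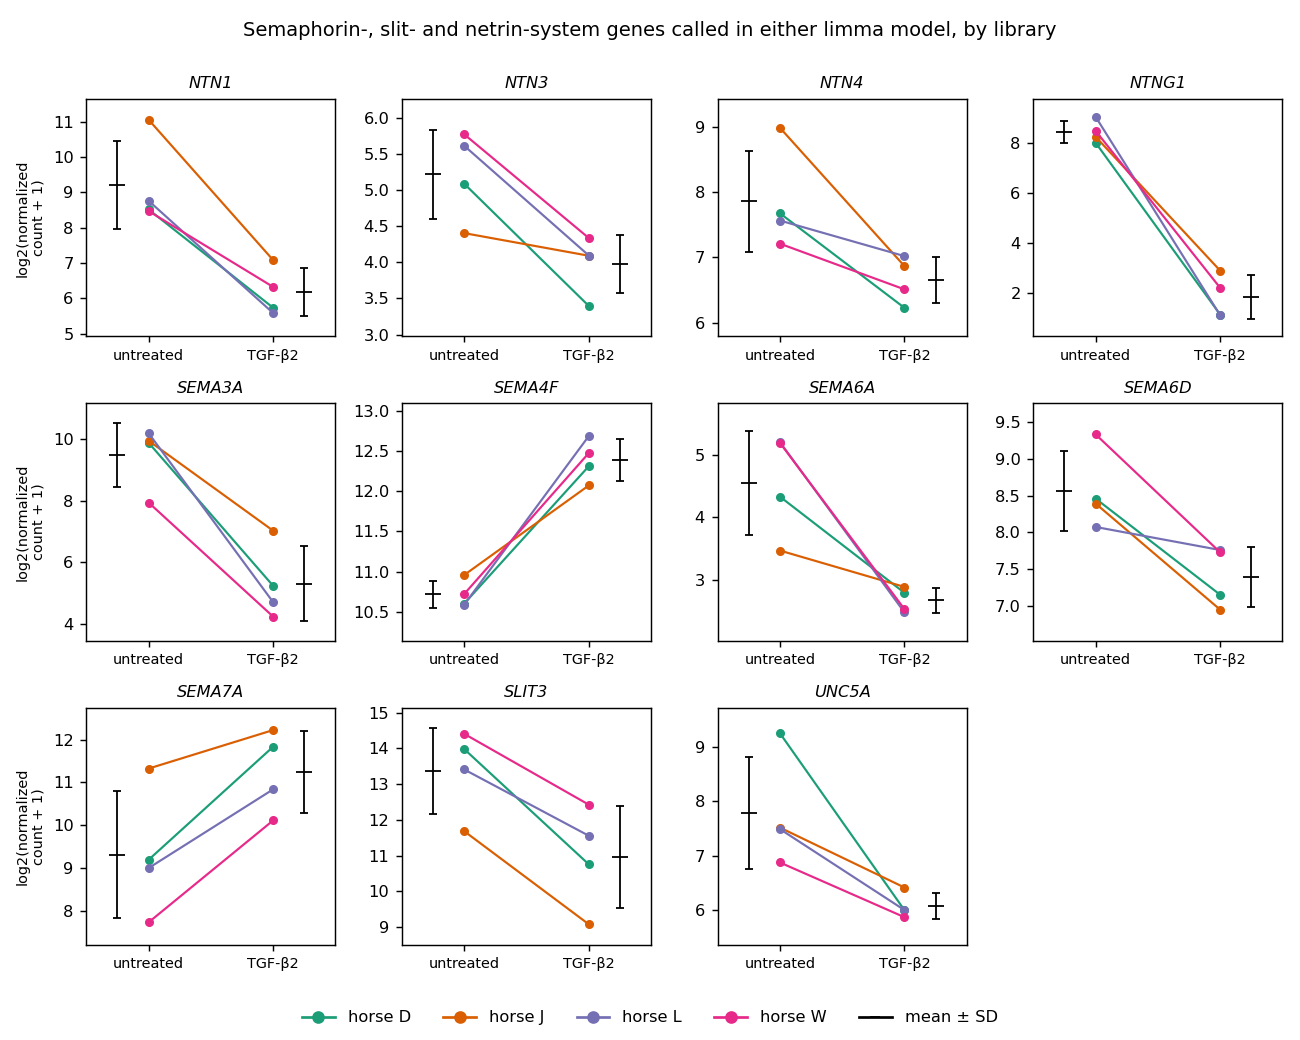
Values of log2(normalized count + 1) (y axis) of the 11 semaphorin, slit and netrin genes called by limma without or with the horse, in untreated and TGF-β2-treated libraries (x axis), with lines joining the libraries of a horse and bars for the mean ± SD of the log2 values (n = 4). Apart from SEMA4F and SEMA7A all of them are lower after treatment, and NTNG1 goes from 259 to 534 normalized counts to at most 6.42.

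Of 20 other guidance ligands, coreceptors and partners listed from outside the pattern, 15 were in the table and tested. Of these, 1 was higher and 4 were lower, 33.3% against 11.5% of all genes tested. The list was chosen with earlier results of these data known, so its share cannot be read as a test of the list. DRAXIN, a secreted ligand of DCC and netrins, rose from 17.6 to 185 normalized counts on average, a log2 fold change of 3.34 (adjusted p from limma 0.00196). RGMA, a membrane-anchored ligand of neogenin, fell from 222 to 46.0 (log2 fold change -2.26, adjusted p 0.00176). SDC3, the heparan sulfate proteoglycan syndecan-3, fell from 8868 to 1426 (-2.64, adjusted p 2.38e-04). These 3 calls held with any 1 horse left out. CHL1, an adhesion molecule that associates with neuropilin-1, fell from 728 to 41.5 (-3.69, adjusted p 0.0188, and 0.110 without horse D). FLRT2, a ligand of UNC5 receptors, fell from 778 to 189 (-1.91, adjusted p 0.0153), with adjusted p of 0.0584, 0.0789 and 0.0698 without D, L and W. With the horse as a block PTPRF, a receptor phosphatase, was also higher (log2 fold change 1.2, adjusted p 0.0341, and 0.186 without the block), and with the horse term kept this was lost without D, J or W (adjusted p 0.109 and 0.113 without D and W, log2 fold change 0.83 without J). The median log2 fold change of the 15 was -0.33, against 0.01 for all genes tested.

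The intracellular mediators of guidance receptors formed a second list, also chosen with earlier results of these data known. Of 60 listed, 54 were tested and 5 were higher and 2 lower, 13.0% against 11.5% of all genes tested, with a median log2 fold change of 0.05. LIMK2, a kinase that inactivates the actin-severing protein cofilin, had a log2 fold change of 1.37 (adjusted p from limma 3.49e-04). VASP and EVL, relatives that promote actin filament growth, had 1.02 and 1.54 (adjusted p 0.00263 and 0.00532). DPYSL4, of the family that mediates semaphorin signals to microtubules, had 2.25 (adjusted p 0.00511), and RND1, a GTPase that binds plexins, had 2.10 (adjusted p 0.00958). SRGAP3, a GTPase-activating protein that binds Robo receptors, fell from 349 to 34.5 normalized counts (-3.29, adjusted p 0.00554). FYN, a kinase of the Src family, had -1.09 (adjusted p 0.00827). LIMK2 and SRGAP3 were called with any 1 horse left out, with and without the horse term. DPYSL4 was called with any 1 left out without that term, but with it the adjusted p was 0.0509 without W. Without horse D the adjusted p of RND1 was 0.0720 and the log2 fold change of VASP 0.99, without W the adjusted p of EVL was 0.0526, and FYN was lost without D, L or W (adjusted p 0.0585 and 0.0742 without D and W, log2 fold change -0.97 without L). VASP was also lost under total scaling. With the horse as a block RAC2 was lower too (-2.47, adjusted p 0.0278, and 0.242 without the block), and with the horse term kept it was lost without D, L or W (0.0653, 0.0626 and 0.0973).

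The level of guidance genes differed widely between the untreated libraries of the horses. With no repeated untreated library of a horse, differences between horses cannot be told apart from those of passage, culture or library. The median SD of log2 values over the untreated libraries was 0.745 for the guidance genes and 0.325 for all genes tested, and 0.407 and 0.234 over the treated libraries. Among the 57 guidance genes with reads in all untreated libraries, 18, or 31.6%, differed by over 4-fold between the highest and the lowest untreated library, against 12.9% of all such genes. Over the guidance genes, deviations from the group means correlated between the untreated and treated library of a horse at 0.39 to 0.66, with a mean of 0.509, against -0.158 between horses. These correlations are across genes, which are not independent replicates. Since deviations were taken from group means, the negative value between horses follows from the positive one within horses. EPHA3 was lowest in horse D in both groups, and UNC5B was over 4 times higher in J and L than in D and W without treatment, at 4330.4 and 6415 against 979.7 and 429 normalized counts.

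**Figure D4:**
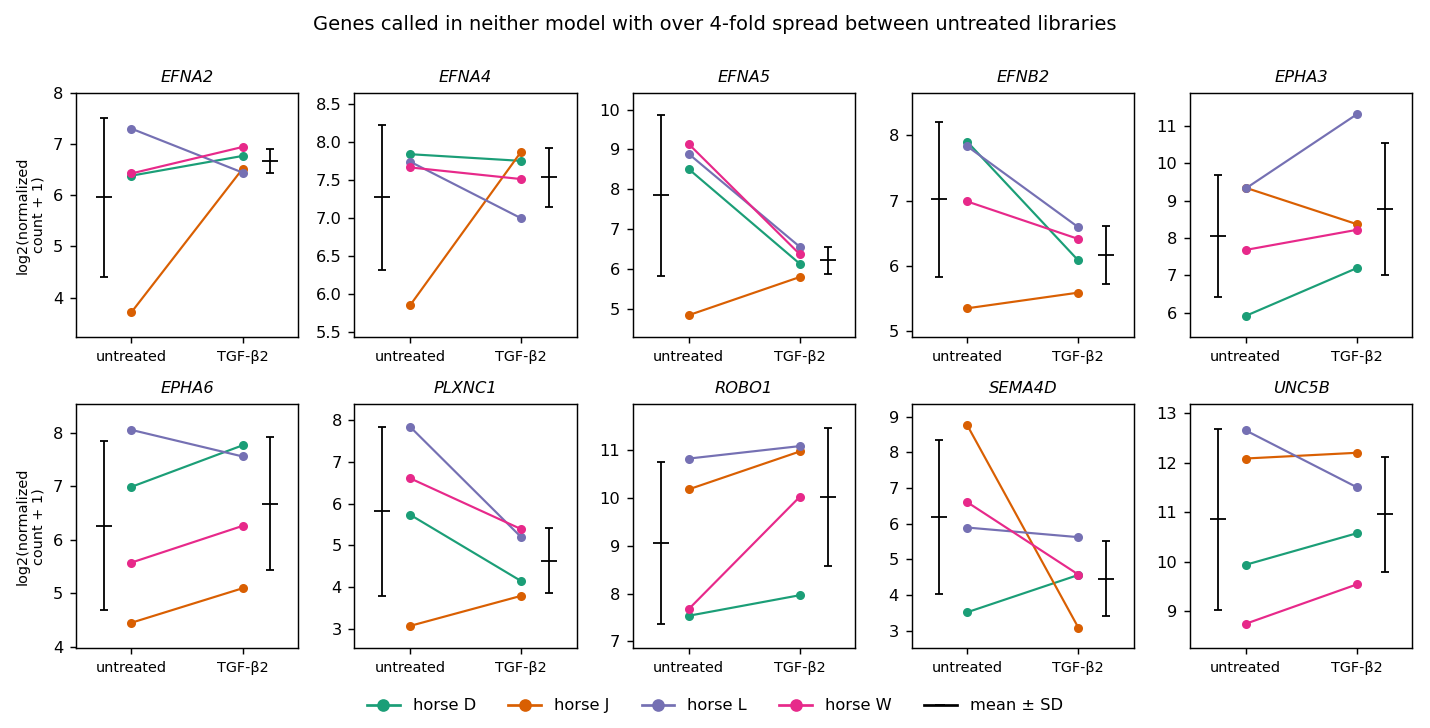
Values of log2(normalized count + 1) (y axis) in untreated and TGF-β2-treated libraries (x axis) of the 10 guidance genes called by neither limma model that differed by over 4-fold between untreated libraries, with lines joining the libraries of a horse and bars for the mean ± SD of the log2 values (n = 4). UNC5B, ROBO1 and EPHA3 spread widely in both groups, while EFNA5 and EFNA2 have their lowest untreated value in horse J, at 27.6 and 12.1 normalized counts.

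Horse J stood apart most often. Its untreated library was the one farthest from the group's median in 32 of 58 guidance genes, 55.2%, against 49.4% of all genes tested, and its treated library in 27, 46.6%, against 31.5%. The change had the same sign in all 4 horses in 35 guidance genes, 60.3%, against 51.9% of all genes tested. Horse J alone went against the other 3 in 13, 22.4%, against 16.5% of all genes. These were EFNA4, EFNA5, EFNB1, EFNB2, EPHA3, EPHA4, PLXNC1, ROBO3, SEMA3C, SEMA3F, SEMA4C, SEMA5A and SEMA6C. Horse L alone did so in 5 genes and horses D and W in 1 each. Without horse J, 8 guidance genes were called higher and 10 lower, against 2 and 1 without D, 3 and 3 without L and 2 and 2 without W. Over all genes tested the share called was 12.7% without J and 4.82%, 8.72% and 5.33% without D, L and W. With the horse term kept, 11 were higher and 14 lower without J, 3 and 5 without D, 7 and 6 without L and 2 and 4 without W. The shares over all genes tested were then 16.4% without J and 7.87%, 12.6% and 7.24% without D, L and W.

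**Figure D5:**
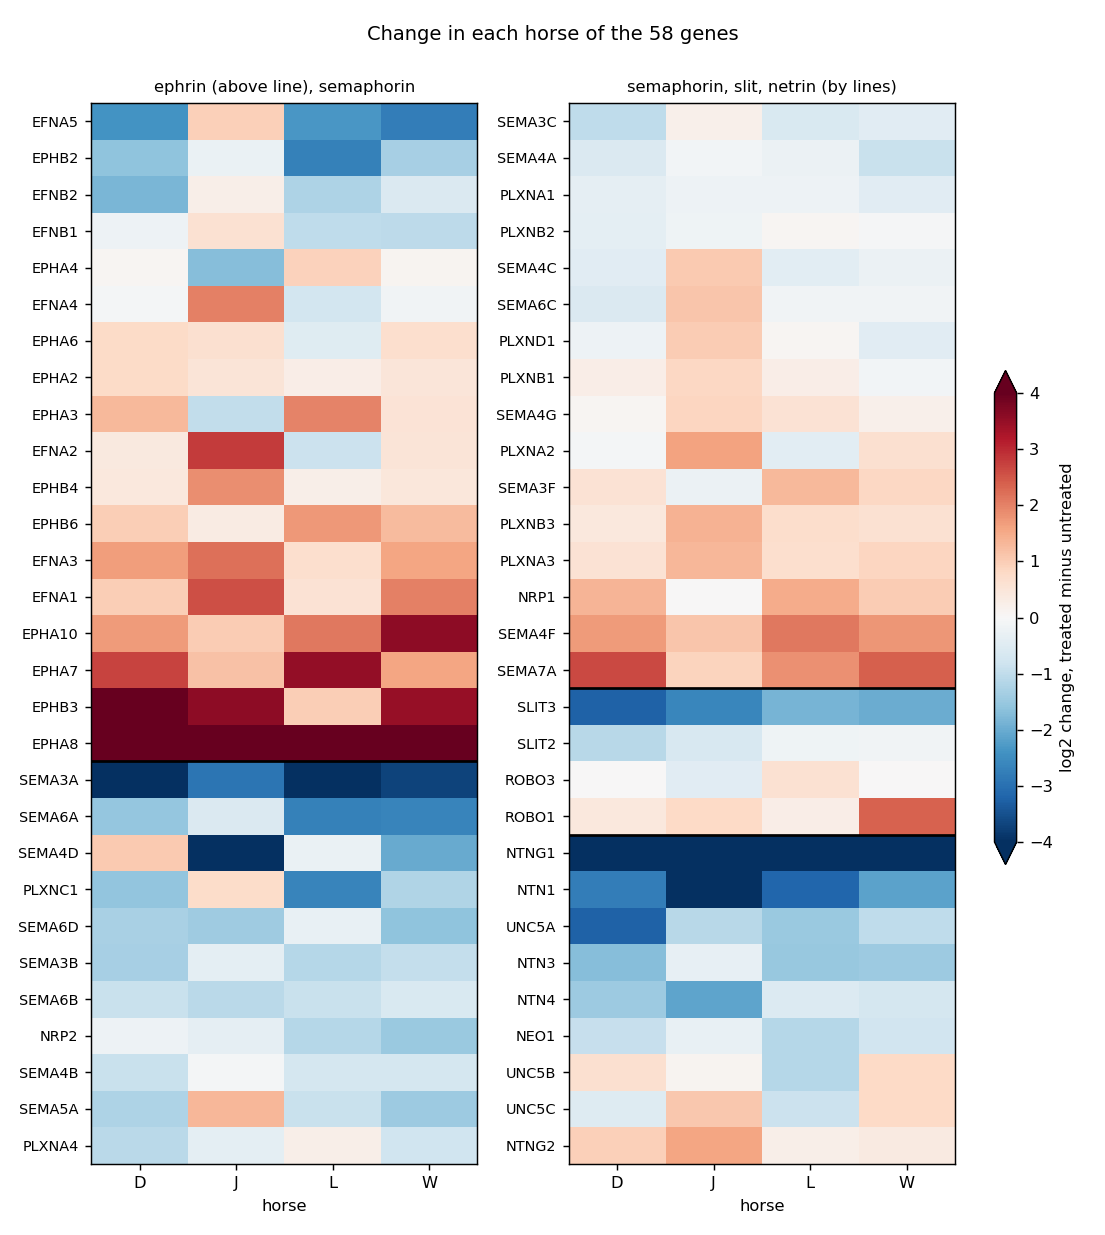
Log2 change of each guidance gene in each horse (rows are genes by system, columns are horses D, J, L and W), treated minus untreated on log2 of normalized count + 1, with the colour scale ending at -4 and 4. All 19 genes called in either model have 1 colour across the 4 horses, while 13 other genes change colour in horse J alone.

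The calls of EPHA8, NTNG1, SEMA3A and SEMA4F were made in each of 16 settings with all 4 horses, among them DESeq2 and edgeR, each fitted to the recovered reads without and with the horse, and an adjusted p under 0.01. EPHA8, NTNG1 and SEMA4F were also called with any 1 horse left out, with and without the horse term.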

How the data were processed

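RNA of 8 libraries, 4 untreated and 4 TGF-β2-treated, was sequenced after poly(A) selection. According to the methods and processing notes, the authors used Trimmomatic 0.36 for trimming, STAR 2.5.2b for alignment to EquCab 3.0 and featureCounts (Subread 1.5.2) for unique hits per gene. They deposited a signal that is never negative, the normalized counts from DESeq2, for 15266 named genes. A row without a gene name, 0.0281% to 0.0531% of the reads, was left out. All values were whole multiples of 1 step per library (tolerance 0.01 reads), so reads were recovered, and 100% came out whole. A floor of 3 reads covers counting error only, since PCR duplicates are not independent.

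Groups were compared with limma 3.58.1 (intensity trend, R 4.3.3) on log2(normalized count + 1), a scale that understates changes of low genes. A gene was tested when 4 or more of the 8 libraries held 10 or more normalized counts, which 14907 genes did, and p-values were adjusted over all of these by the Benjamini-Hochberg method. A call required an adjusted p under 0.05 and a log2 fold change beyond 1 in either direction. The model had no term for the horse, since the methods of the study name none and do not give their model formula. Each horse letter names 1 animal in both groups, and libraries of the same horse deviated together (correlation across genes 0.386 to 0.609, mean 0.480, against -0.159 between horses), so the value with the horse as block is printed beside each call it changes. Deviations were taken from the mean of each group, which makes the value between horses negative whenever that within horses is positive. It is therefore no separate contrast. Without the horse, p-values measure the spread among the 4 libraries within each group and treat the libraries of a horse as independent. With the horse as a block, they measure the spread of the change between the 4 animals. In both, limma moderates the variance of a gene by that of other genes.

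The alternatives were pseudocounts of 0.5 and 5, a filter at 50 or none, scaling by total, upper quartile or TMM, no trend, count models fitted to the recovered reads (DESeq2 1.42.0 and edgeR 4.0.16) without and with the horse, a threshold of 0.01 on the adjusted p, dropping the fold threshold, and leaving out each horse in turn, without and with the horse term. The edgeR fit with the horse and the block with total scaling were added after the values were seen. The procedures were tested on simulated data. Values in every library are given for each guidance gene called by limma without or with the horse, and a fold change for each other one with an absolute log2 fold change over 1 or with non-overlapping groups and 1 direction in all horses. A few further genes were chosen for their values. The guidance genes, the lists of partners and mediators and the markers were chosen with earlier results of these data known, and some of the markers are not reported here. Neighbouring and overlapping genes come from the RefSeq table of assembly TB-T2T, in which all 58 symbols matched. It differs from EquCab 3.0, so no coordinates are given, and no sequences were analysed here.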

Additional observations from a re-analysis of the deposited data

Results flagged for a closer look

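In 14 of the 116 groups of 4 libraries (58 guidance genes, untreated and treated), the highest or lowest library lay farther from the other 3 than Dixon's 95% critical value allows. For normally distributed values about 1 in 20, or 5.8, would be flagged. These were normalized counts without a log scale, so that number need not hold for them. The untreated library of horse J accounted for 5 of them. It was low for EFNA4, at 56.55 normalized counts against 202 to 228 in the other 3 untreated libraries, and for EPHB4, at 1135 against 2776 to 2972. It was high for NTN1, at 2128 against 354 to 433, for NTN4, at 507 against 147 to 204, and for SEMA7A, at 2559 against 211 to 583. The treated library of J was high for SEMA3A, at 129.5 against 18.0 to 36.9, and for SEMA5A, at 1070 against 49.3 to 98.9.

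The untreated library of L was high for EPHB3, at 286.5 against 10.8 to 51.7, and for EPHA8, at 4.711 against 0 in the other 3, and its treated library was high for EPHA3, at 2546 against 145 to 329.7. With 0 in the other 3 libraries any read is flagged, so the flag of EPHA8 was fixed in advance. The untreated library of D was high for UNC5A, at 608.2 against 117 to 182, and its treated library low for PLXNA3, at 2109 against 3199 to 3252. Horse W was high without treatment for ROBO3, at 58.85 against 37.0 to 39.6, and low after it for PLXNA1, at 5100 against 6894 to 7245. The cause of these values was not tested.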

How the results depend on the processing

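Limma without the horse called 7 guidance genes higher and 7 lower. The number of higher genes was 3 with a filter at 50 normalized counts, where 50 of the 58 genes were tested, and 2 at an adjusted p under 0.01, and ran from 2 to 11 with 1 horse left out. The number of lower genes was 12 under total scaling, 12 with DESeq2, 11 with DESeq2 and the horse as a block, 15 with the block and total scaling and 2 at an adjusted p under 0.01, and ran from 1 to 14 with 1 horse left out. Over all genes the shares called were 14.3%, 13.8%, 15.7% and 17% in the first 4 of these settings. The share over all genes was 10.7% with the filter at 50 and ran from 4.82% to 16.4% with 1 horse left out. With the horse as a block in limma 9 were higher and 10 lower, and with edgeR 6 and 9, where 14.1% and 11.3% of all genes were called. Of the list of mediators, 7 were called, 11 with the block and total scaling, 19 with no fold change threshold and 4 to 11 with 1 horse left out. The shares over all genes with no fold change threshold and at an adjusted p under 0.01 are not given here. The counts at those settings therefore have no background to be read against. No named gene changed sign under an alternative that made a call. With the block, DESeq2 no longer called SEMA3B and SEMA4D lower, and edgeR no longer SEMA3B. DESeq2 gave no adjusted p for NTN1 and SEMA5A without the horse. Apart from the fewer libraries and genes stated, the cause of these moves was not tested. Precision is limited by 4 horses, and for EPHA8, EPHA10, NTNG1 and SEMA6A by few reads in 1 group. On the deposited scaling with all 4 horses, the block in limma changed the calls of EPHB2, EPHB3, NTN4, SEMA7A, SLIT3, PTPRF and RAC2. No other call of a guidance gene, mediator or partner changed there. Under total scaling the block added EFNA1, EPHB3 and SEMA7A to the higher guidance genes and EFNB2, NRP2 and SEMA6B to the lower ones.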
